A study of Mus musculus with 10 samples.

Results

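The 9 genes described here encode molecules by which leukocytes attach to a vessel wall: the selectins *Sele* and *Selp*, the selectin ligand *Selplg*, and the immunoglobulin-type adhesion molecules *Vcam1*, *Icam1*, *Icam2*, *Madcam1*, *Alcam* and *Mcam*. They were taken by symbol, from a list of names that was drawn up with earlier results of these data known. All 9 were among the 49568 genes of the deposited table and among the 14870 genes that were tested, for which the normalized count had to average 10 or more over the mice. Reactive cholangiocytes, the bile duct cells that expand in an injured liver, were sorted from 5 *Smad4del* mice and 5 *Ctl* mice and sequenced as 1 library per mouse. *Smad4del* mice carried *Alb-Cre* and *Smad4* fl/fl. *Alb-Cre* is a Cre recombinase driven by the albumin promoter, which acts in the hepatocyte and bile duct lineage, so *Smad4* is not targeted in vessels or blood cells. *Ctl* mice are labelled *Smad4* wt/wt. A figure legend of the study describes the controls of its DDC histology cohorts as lacking *Alb-Cre*. Whether the sequenced *Ctl* mice lacked it is not stated, so that the presence of Cre and the loss of *Smad4* cannot be told apart. Mice of both cohorts were of mixed genetic background and had received 0.1% DDC, a compound that injures bile ducts through porphyrin plugs, in the diet for 2 weeks. The labels give neither age nor sex, and they carry a cell line tag and a culture protocol although the methods describe cells taken straight from digested livers. The sort kept viable cells with EPCAM, an epithelial surface protein, and without CD45, carried by leukocytes, and TER119, carried by erythroid cells. No endothelial surface protein was part of the gate.

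Leukocytes leave the blood in steps. Selectins on endothelium and platelets catch passing leukocytes by carbohydrates on ligands such as PSGL-1, the product of *Selplg*, so that they roll along the wall. Leukocyte integrins then hold on to ICAM-1, ICAM-2, VCAM-1 or MAdCAM-1, and junction proteins let the cells pass. Inflamed biliary epithelium can itself display ICAM-1, whereas E-selectin and P-selectin are chiefly products of activated endothelium and, for P-selectin, platelets.

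On GRCm38, in the annotation of GENCODE M21, *Sele* (ENSMUSG00000026582) spans chr1:164048234-164057677 and *Selp* (ENSMUSG00000026580) spans chr1:164115264-164150026, both on the plus strand. *Madcam1* (ENSMUSG00000020310) spans chr10:79664559-79668537 on the plus strand. The 250 bases before the start of these 3 genes are printed because the selectins had the largest differences between the cohorts among the 9 and because *Madcam1* held most of the motif matches. They are credited to RefSeq, build GRCm38.p6, and run on the plus strand over chr1:164047984-164048233 for *Sele*, chr1:164115014-164115263 for *Selp* and chr10:79664309-79664558 for *Madcam1*. Capitals mark TATAAA in *Sele*, and in *Madcam1* the matches to the NF-kB consensus and, last, CAGACA.
Sele: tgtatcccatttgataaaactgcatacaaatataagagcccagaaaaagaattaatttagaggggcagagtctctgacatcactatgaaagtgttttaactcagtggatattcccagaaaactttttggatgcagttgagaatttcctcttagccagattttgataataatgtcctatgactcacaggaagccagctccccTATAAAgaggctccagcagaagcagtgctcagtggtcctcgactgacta
Selp: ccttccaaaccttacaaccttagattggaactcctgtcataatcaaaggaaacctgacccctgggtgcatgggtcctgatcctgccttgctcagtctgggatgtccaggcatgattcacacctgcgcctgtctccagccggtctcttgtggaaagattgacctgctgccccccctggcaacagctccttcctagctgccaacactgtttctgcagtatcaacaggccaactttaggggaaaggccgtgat
Madcam1: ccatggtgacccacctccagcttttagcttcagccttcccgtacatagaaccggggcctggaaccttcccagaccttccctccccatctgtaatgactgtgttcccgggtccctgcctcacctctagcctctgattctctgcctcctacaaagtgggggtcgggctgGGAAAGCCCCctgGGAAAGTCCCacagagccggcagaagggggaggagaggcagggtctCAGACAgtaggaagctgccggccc

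The window was searched on both strands for the NF-kB consensus, for the SMAD motifs GTCTAGAC and CAGACA and, after the sequences had been read, for TATAAA. The NF-kB consensus was GGGRNNYYCC, with R a purine, Y a pyrimidine and N any base. Only exact matches were counted, so a site that departs from this pattern was missed in any window, those of *Sele* and *Icam1* included. RefSeq windows were at hand for 6 of the 9 genes, *Sele*, *Selp*, *Icam1*, *Madcam1*, *Alcam* and *Mcam*, and not for *Selplg*, *Vcam1* and *Icam2*. They precede the RefSeq start, which can differ from that of GENCODE M21. The *Alcam* window (chr16:52453082-52453331, minus strand) lies inside the GENCODE gene, which starts at 52454074. The *Mcam* window (chr9:44134408-44134657, plus strand) runs past the GENCODE start at 44134469. *Sele* held TATAAA from 49 to 44 bases before its start. *Madcam1* held the NF-kB consensus, read on the minus strand, at 83 to 74 and at 70 to 61 bases before its start, and CAGACA at 24 to 19 bases. None of the 4 motifs had an exact match in the windows of *Selp*, *Icam1*, *Alcam* and *Mcam*, which does not say that these promoters lack NF-kB sites. Over 32851 promoter windows of the same length, 7.25% held the NF-kB consensus, 0.167% GTCTAGAC, 17.1% CAGACA and 12.4% TATAAA.

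The table held reads on genes in the amount of 16734672 to 19710560 in *Smad4del* mice and 16249719 to 21277339 in *Ctl* mice. *Smad4* itself stood at 687 to 1031 normalized counts in *Smad4del* mice, against 2969 to 3714 in *Ctl* mice (log2 fold change -1.96, limma with Benjamini-Hochberg adjustment, adjusted p = 1.09e-05). Markers of the labelled cell type were abundant, with a mean log2 level over 15 cholangiocyte markers of 12.6 to 12.9 in *Smad4del* mice and 12.3 to 12.8 in *Ctl* mice. Their sum was higher in each *Smad4del* mouse than in any *Ctl* mouse, at 539632 to 675133 normalized counts in *Smad4del* mice and 368807 to 535005 in *Ctl* mice. Of the 15, *Krt19*, *Anxa4* and *Muc1* were called higher and *Sctr* lower (6 higher and 1 lower by DESeq2, 1 higher without A5218, 2 lower without A5447). The markers with the highest mean were *Spp1*, at 457072 in *Smad4del* mice and 359949 in *Ctl* mice (limma adjusted p = 0.166), and *Krt19*, at 30191 in *Smad4del* mice and 20800 in *Ctl* mice. The part of this difference in the values of the 9 genes was not tested. The 10 hepatocyte markers had a mean log2 level of 10.2 to 11.4 in *Smad4del* mice and 9.88 to 10.9 in *Ctl* mice. None of the 10 was called by limma (4 higher at an unadjusted p under 0.05, 3 higher by DESeq2 and without A5447, 1 higher without A5215 or A5219, 1 lower without A5221), *Alb* with 31512 normalized counts in *Smad4del* mice and 19419 in *Ctl* mice and *Fgb* with 5108 in *Smad4del* mice and 6920.5 in *Ctl* mice included. Of all 14870 genes, 697 (4.69%) were called lower and 362 (2.43%) higher in *Smad4del* mice at an adjusted p under 0.05, and when each mouse was scaled to the same median the split was 639 lower and 626 higher. A log2 fold change here is the difference, *Smad4del* minus *Ctl*, of mean log2(normalized count + 1). The p-values set the difference between the cohorts against the spread between mice, and take the mice as independent. The methods say that littermates served as controls where possible. Nothing in the labels says which mice were littermates, so independence could not be checked.

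Of the 9 adhesion genes, 6 fell in *Smad4del* mice and 0 rose. *Sele*, *Selp*, *Vcam1*, *Icam2*, *Madcam1* and *Mcam* fell, and *Selplg*, *Icam1* and *Alcam* did not pass the test. The 6 make 66.7% of the list, beside 4.69% of all tested genes called lower. The 0 called higher by limma stands beside 2.43% of all tested genes, and the count was also 0 at an unadjusted p under 0.05, by edgeR and by DESeq2. In 5 of the 9 (55.6%) every *Smad4del* mouse lay below every *Ctl* mouse, beside 4.59% of all tested genes, and in none did every *Smad4del* mouse lie above every *Ctl* mouse, beside 3.5%. The median log2 fold change of the 9 was -1.10, against -0.005 over all tested genes. The same 6 calls held by edgeR and by DESeq2, and in every fit that left out 1 mouse. In these bulk samples fewer cells of a type and less RNA per cell cannot be told apart.

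**Figure D1:**
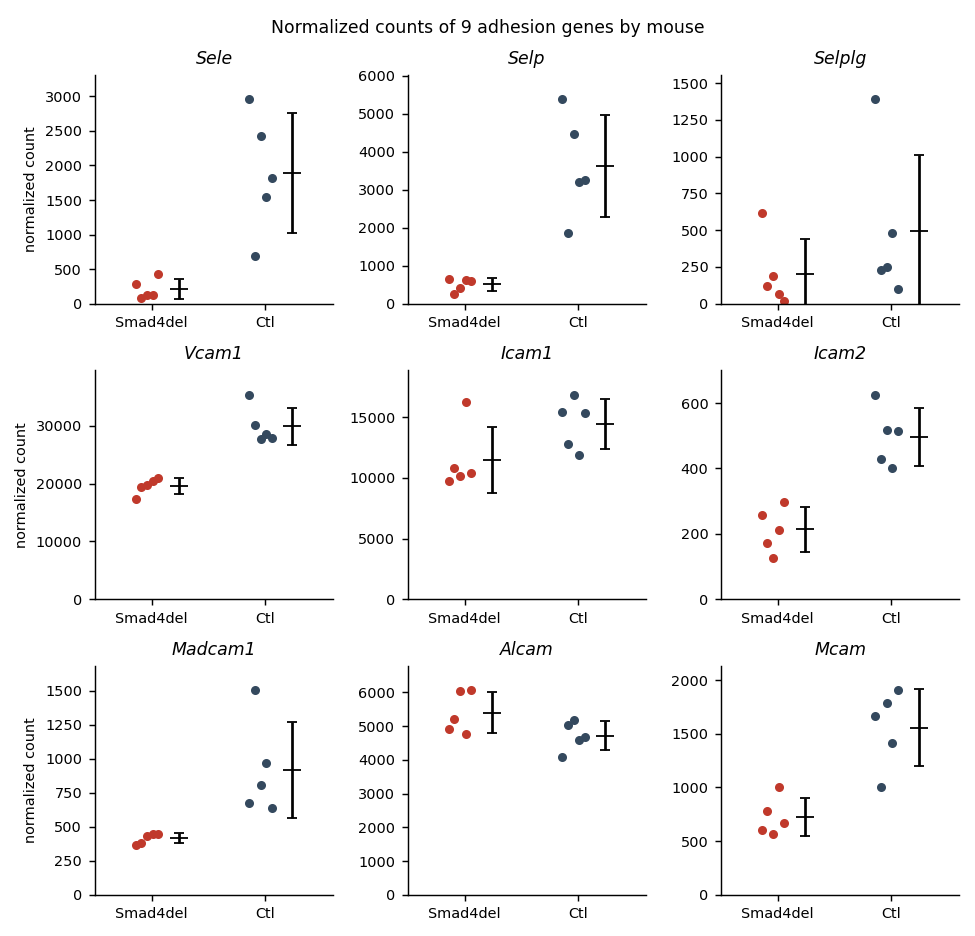
Normalized counts (vertical axes, linear from 0) of the 9 genes in 5 *Smad4del* mice (red, left) and 5 *Ctl* mice (dark blue, right), 1 point per mouse, with the mean and SD of each cohort as a bar beside the points. The SD bars of *Selplg*, which reach below 0, are drawn from 0. *Sele*, *Selp*, *Vcam1*, *Icam2* and *Madcam1* do not overlap between the cohorts.

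The selectins had the lowest log2 fold changes of the 9. *Sele* encodes E-selectin, which cytokine-activated endothelium makes anew. In order of mouse number, as throughout, it had 279, 79.9, 119.7, 127 and 431 normalized counts in *Smad4del* mice (A5216, A5217, A5218, A5447 and A5624), against 2961, 684, 2419.7, 1543 and 1821 in *Ctl* mice (A5215, A5219, A5221, A5626 and A5628). The cohorts did not overlap, and the *Ctl* mouse nearest to the *Smad4del* mice was A5219. *Sele* averaged 207 ± 146 normalized counts in *Smad4del* mice and 1886 ± 867 in *Ctl* mice (SD, n = 5 each), a mean 9.09-fold lower. Its log2 fold change was -3.30 with a standard error of 0.48 (95% confidence interval -4.34 to -2.25, limma adjusted p = 0.00322), the 65th lowest of the 14870. An exact two-sided permutation test gave p = 0.00794, the smallest that 5 mice against 5 allow.

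*Selp* encodes P-selectin, which endothelial cells and platelets keep in granules and bring to the surface on activation. It had 650.0, 262, 413, 622 and 604 normalized counts in *Smad4del* mice, against 5385, 1867, 4460.0, 3190.4 and 3263 in *Ctl* mice. Again no values overlapped, and A5219 was again the lowest *Ctl* mouse. The means were 510.1 ± 167 in *Smad4del* mice and 3633 ± 1342 in *Ctl* mice (SD, n = 5 each), a mean 7.12-fold lower. The log2 fold change was -2.82 with a standard error of 0.30 (interval -3.48 to -2.16, limma adjusted p = 5.39e-04), with the same exact permutation p of 0.00794. Among markers of platelets, the other cells that carry P-selectin, 0 of 8 were called lower by limma, at an unadjusted p under 0.05, by edgeR or by DESeq2. By limma 4.69% of all tested genes were called lower, from which 0 of 8 cannot be told. Their mean log2 level spanned 5.53 to 8.70 in *Smad4del* mice and 4.74 to 8.54 in *Ctl* mice. The markers with the highest mean were *Ppbp*, at 1532 in *Smad4del* mice and 790.2 in *Ctl* mice, and *Itga2b*, at 969 in *Smad4del* mice and 968 in *Ctl* mice. The part of platelets in the *Selp* values was not tested.

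*Selplg* encodes PSGL-1, the main selectin ligand of leukocytes. It had 614, 119, 189.7, 65.4 and 19.8 normalized counts in *Smad4del* mice, against 1392, 231, 248.9, 480.4 and 103 in *Ctl* mice. The cohorts overlapped, and 1 mouse of each, A5216 and A5215, stood far above its cohort. The means were 201 ± 239 in *Smad4del* mice and 491 ± 522 in *Ctl* mice (SD, n = 5 each). The log2 fold change of -1.54 had a standard error of 0.85 and an interval from -3.39 to 0.31 (limma adjusted p = 0.260), so a fall as large as that of *Selp* and no difference both lie within it. The exact permutation p was 0.175. The same mice were highest for the list of 17 macrophage markers, whose mean log2 level was 11.1 in A5216, within 6.65 to 11.1 over *Smad4del* mice, and 13.3 in A5215, within 8.35 to 13.3 over *Ctl* mice. The sums of the list ran from 28563 to 113803 normalized counts in *Smad4del* mice and from 39588 to 335596 in *Ctl* mice. *Cd14* alone gave 20150.5 to 27133 in *Smad4del* mice and 24625 to 37570 in *Ctl* mice, so that the lowest sums were largely *Cd14*. *Marco*, *Timd4* and *Cd163* were at 0 in at least 1 *Smad4del* mouse. Of the 17, limma called 1 lower (*Cd163*), beside 4.69% of all tested genes. The count was 0 by edgeR and DESeq2, and 16 at an unadjusted p under 0.05. By limma it was 0 without A5217, A5218, A5624, A5215, A5221 or A5626, 2 without A5628 and 4 without A5216. The markers with the highest mean gave no call: *Cd14* averaged 24152 in *Smad4del* mice and 29803 in *Ctl* mice, and *Lyz2* 13644 in *Smad4del* mice and 39435 in *Ctl* mice. The part of these cells in the *Selplg* values was not tested.

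*Vcam1* encodes the ligand of the integrin that pairs ITGA4 with ITGB1. It had 17269.7, 19346, 19759.5, 20517 and 20972 normalized counts in *Smad4del* mice, against 35376, 30074, 27751, 28483 and 27937 in *Ctl* mice. All *Smad4del* mice lay close together below all *Ctl* mice. The means were 19573 ± 1435 in *Smad4del* mice and 29924 ± 3182 in *Ctl* mice (SD, n = 5 each), 65.4% of the *Ctl* mean. The log2 fold change was -0.61 with a standard error of 0.09 (interval -0.81 to -0.41, limma adjusted p = 0.00391), smaller than those of the selectins but with the smallest standard error of the 9.

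*Icam1* encodes the ligand of the ITGB2 integrins LFA-1 and Mac-1, and is induced by inflammatory cytokines in endothelium and epithelium alike. It had 9748, 10775, 10156, 16268 and 10431 normalized counts in *Smad4del* mice, against 15417, 12832.5, 16862, 11867 and 15381 in *Ctl* mice. In *Smad4del* mice 4 of 5 lay below every *Ctl* mouse and the remaining one, A5447, lay above all *Ctl* mice but A5221. The means were 11476 ± 2705 in *Smad4del* mice and 14472 ± 2056 in *Ctl* mice (SD, n = 5 each). The log2 fold change of -0.35, with a standard error of 0.15 (interval -0.67 to -0.03), did not pass adjustment over all genes (limma adjusted p = 0.149), and the exact permutation p was 0.0714. Without A5447 the log2 fold change was -0.48 and passed (limma adjusted p = 0.0235). The mean log2 level of 6 mesothelial markers was highest of the *Smad4del* mice in A5447, within 8.71 to 9.99, against 9.045 to 10.8 in *Ctl* mice, and 0 of the 6 were called by limma (5 lower at an unadjusted p under 0.05, 3 by DESeq2). Without A5447 limma called 3 of them lower, and without A5219 it called 4. The markers with the highest mean were *Msln*, at 4759 in *Smad4del* mice and 7089 in *Ctl* mice, and *Gpm6a*, at 2686 in *Smad4del* mice and 3895 in *Ctl* mice. A5447 also had the highest mean log2 level of the cholangiocyte markers (12.9) and the lowest of the macrophage markers (6.65) among all 10 mice. The part of any of these cells in the *Icam1* values was not tested.

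*Icam2* encodes another ligand of LFA-1, which resting endothelium carries without induction. It had 258, 172, 127, 212 and 299 normalized counts in *Smad4del* mice, against 626, 429, 517, 399.9 and 515 in *Ctl* mice. The cohorts did not overlap. The means were 213 ± 68.0 in *Smad4del* mice and 497 ± 88.6 in *Ctl* mice (SD, n = 5 each), 42.9% of the *Ctl* mean, with a log2 fold change of -1.26 and a standard error of 0.23 (interval -1.76 to -0.76, limma adjusted p = 0.00887).

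*Madcam1* encodes the mucosal addressin, a ligand of the integrin that pairs ITGA4 with ITGB7 and best known from venules of the gut. It had 367, 382, 430.0, 449.5 and 448 normalized counts in *Smad4del* mice, against 671, 1503, 809, 971 and 641 in *Ctl* mice. The *Smad4del* mice formed a narrow band below all *Ctl* mice. A5219, the *Ctl* mouse with the lowest *Sele* and *Selp*, had the highest *Madcam1*. The means were 415 ± 38.3 in *Smad4del* mice and 919 ± 352 in *Ctl* mice (SD, n = 5 each), 45.2% of the *Ctl* mean, with a log2 fold change of -1.08 and a standard error of 0.21 (interval -1.53 to -0.62, limma adjusted p = 0.0122). For *Vcam1*, *Icam2* and *Madcam1* the exact permutation p was 0.00794, as for the selectins.

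*Mcam* encodes CD146, an adhesion molecule of endothelial junctions and of the muscle and pericyte layer of vessels. It had 605, 781, 565, 1003 and 673 normalized counts in *Smad4del* mice, against 1670.3, 1001, 1785, 1416 and 1907 in *Ctl* mice. The cohorts touched at 1 pair of mice only, A5447 and A5219. The means were 725 ± 175 in *Smad4del* mice and 1556 ± 359 in *Ctl* mice (SD, n = 5 each), 46.6% of the *Ctl* mean, with a log2 fold change of -1.10 and a standard error of 0.20 (interval -1.52 to -0.67, limma adjusted p = 0.00833, exact permutation p = 0.0159). Of 14 stellate cell, fibroblast and smooth muscle markers, 2 were called lower, *Dcn* and *Acta2*, beside 4.69% of all tested genes. The mean log2 level of the 14 was 7.69 to 8.66 in *Smad4del* mice and 8.66 to 10.1 in *Ctl* mice. The count of lower calls was 1 without A5217, 4 without A5626, 5 by DESeq2 and 8 at an unadjusted p under 0.05. *Rgs5*, which with *Dcn* had the highest mean of the list, averaged 13385 in *Smad4del* mice and 13080.3 in *Ctl* mice (log2 fold change 0.04). *Dcn* averaged 3259 in *Smad4del* mice and 14999.7 in *Ctl* mice (log2 fold change -2.08). The part of these cells in the *Mcam* values was not tested.

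*Alcam* encodes CD166, which binds CD6 on T cells and also itself on neighbouring epithelial cells. It was the single gene of the 9 with a fold change above 0. It had 4915, 5225, 6041, 4776 and 6068 normalized counts in *Smad4del* mice, against 4075, 5042, 5175, 4604 and 4689 in *Ctl* mice. The cohorts overlapped, with A5217, A5218 and A5624 above all *Ctl* mice. The means were 5405 ± 615 in *Smad4del* mice and 4717 ± 430.4 in *Ctl* mice (SD, n = 5 each). The log2 fold change was 0.19 with a standard error of 0.10 (interval -0.02 to 0.40, limma adjusted p = 0.213, exact permutation p = 0.0873).

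**Figure D2:**
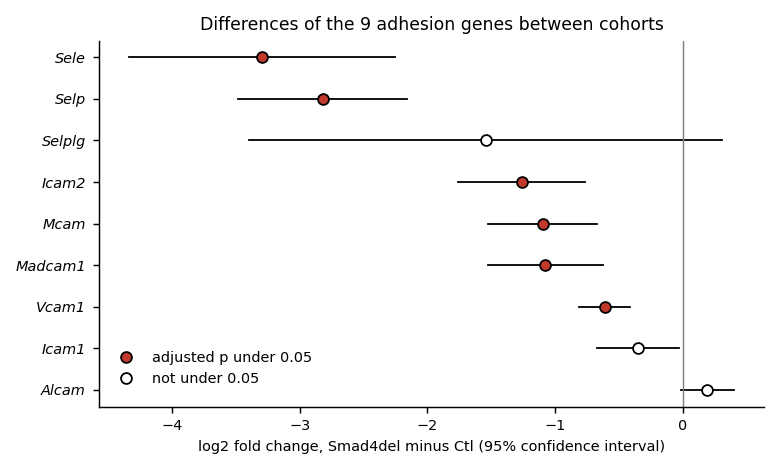
Log2 fold change, *Smad4del* minus *Ctl* (horizontal axis), of the 9 genes with its 95% confidence interval from limma, ordered by size; filled points have an adjusted p under 0.05 over all 14870 tested genes. The 6 filled points run from -3.30 for *Sele* to -0.61 for *Vcam1*, and *Alcam* alone lies right of 0.

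The 9 genes took 0.196% to 0.243% of normalized counts in *Smad4del* mice and 0.290% to 0.342% in *Ctl* mice. *Vcam1* and *Icam1* held most of that, 77.8% to 83.5% in *Smad4del* mice and 74.3% to 80.0% in *Ctl* mice. Per kilobase of exon, a scale on which genes can be compared, the mean levels in *Smad4del* mice ran from 2632 normalized counts for *Icam1* over 2207 for *Vcam1*, 759 for *Alcam*, 289 for *Madcam1*, 217 for *Mcam*, 116 for *Selp*, 112 for *Icam2* and 71.2 for *Sele* to 47.2 for *Selplg*. In that order the values of neighbours overlapped except between *Vcam1* and *Alcam*, *Alcam* and *Madcam1*, and *Mcam* and *Selp*. In *Ctl* mice the means ran from 3374 for *Vcam1* over 3319 for *Icam1*, 823 for *Selp*, 662 for *Alcam*, 648 for *Sele*, 640.0 for *Madcam1*, 464 for *Mcam* and 261 for *Icam2* to 115 for *Selplg*. There the single gap without overlap was between *Icam1* and *Selp*. *Vcam1* and *Icam1* led in both cohorts, while *Selp* stood at place 6 in *Smad4del* mice and 3 in *Ctl* mice, and *Sele* at place 8 in *Smad4del* mice and 5 in *Ctl* mice. The spread between mice differed from gene to gene, with an SD of 7.33% of the mean in *Smad4del* mice and 10.6% in *Ctl* mice for *Vcam1*, and 119% in *Smad4del* mice and 106% in *Ctl* mice for *Selplg*.

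**Figure D3:**
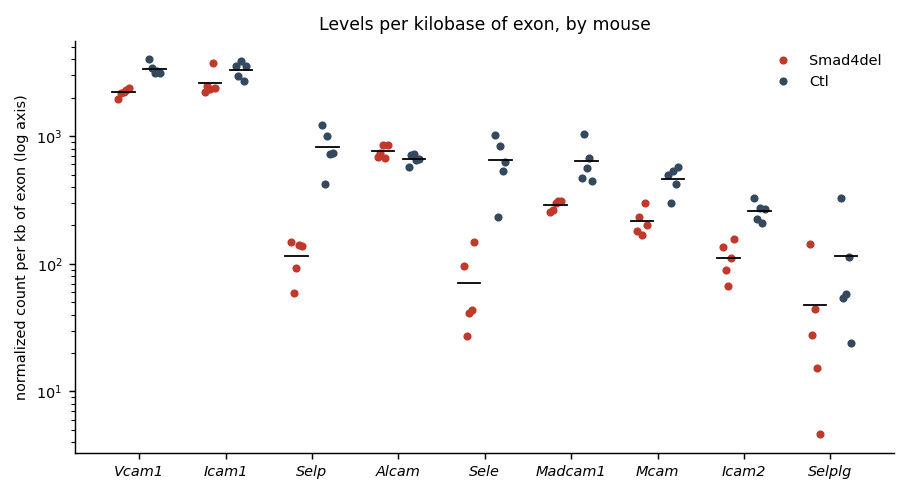
Normalized count per kilobase of exon (vertical axis, log scale) of the 9 genes in *Smad4del* (red, left of each pair) and *Ctl* mice (dark blue, right), 1 point per mouse with the cohort mean as a line, genes ordered by their *Ctl* mean. *Vcam1* and *Icam1* stand at 1947 or above in every mouse, and the widest gaps between the cohorts are at *Selp* and *Sele*.

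Most endothelial markers were lower in *Smad4del* mice, as were 6 of the 9 members. Of 23 tested endothelial genes 19 were called lower and 0 higher in *Smad4del* mice, the 0 also at an unadjusted p under 0.05, by edgeR and by DESeq2. Over all tested genes 4.69% were called lower and 2.43% higher. All 23 had a log2 fold change below 0 (median -1.48). Leaving out 1 mouse gave 14 to 19 lower calls. *Vwf*, which encodes von Willebrand factor, averaged 2001 normalized counts in *Smad4del* mice and 6558 in *Ctl* mice. *Ptprb*, a phosphatase of vessel walls, averaged 1295 in *Smad4del* mice and 5977 in *Ctl* mice. The list summed to between 11098 and 22290.5 normalized counts in *Smad4del* mice and between 29649 and 87499 in *Ctl* mice. Its mean log2 level was 8.03 to 9.004 in *Smad4del* mice and 9.51 to 10.8 in *Ctl* mice, and no defining marker of it was at 0 in any mouse other than *Lyl1*. The part of endothelial cells in the members' differences was not tested.

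The members differed in how they stood to these markers, which was looked at after the values had been seen and is given without a test. Relative to the mean log2 level of the endothelial list, *Sele* lay at -1.18 ± 0.74 in *Smad4del* mice and 0.64 ± 0.50 in *Ctl* mice (SD, n = 5 each). *Selp* lay at 0.31 ± 0.40 in *Smad4del* mice and 1.66 ± 0.29 in *Ctl* mice. Neither overlapped, and both selectins were lower also on this scale, with differences of -1.82 for *Sele* and -1.34 for *Selp*. *Icam2*, *Madcam1*, *Mcam*, *Vcam1* and *Selplg* overlapped between the cohorts, with differences of 0.21, 0.40, 0.38, 0.87 and -0.07. *Icam1* lay at 4.85 ± 0.44 in *Smad4del* mice and 3.73 ± 0.47 in *Ctl* mice. *Alcam* lay at 3.79 ± 0.47 in *Smad4del* mice and 2.12 ± 0.61 in *Ctl* mice, and both were higher on this scale without overlap. The list level itself was lower in *Smad4del* mice, so a gene with an unchanged count lies higher on this scale by construction. Differences above 0 here are therefore not a rise in counts. On their own counts *Icam1* and *Alcam* had log2 fold changes of -0.35 and 0.19, without a call.

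**Figure D4:**
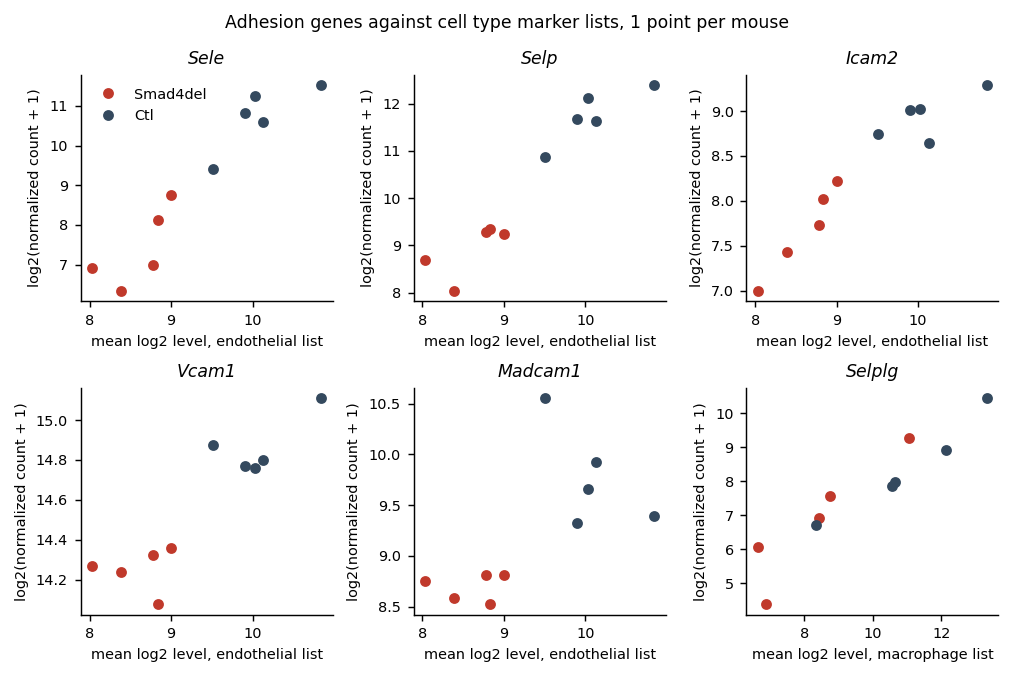
Log2(normalized count + 1) of 6 adhesion genes (vertical axes) against the mean log2 level of the endothelial list, or for *Selplg* of the macrophage list (horizontal axes), 1 point per mouse in *Smad4del* (red) and *Ctl* mice (dark blue). The endothelial level separates the cohorts, at 8.03 to 9.004 in *Smad4del* mice and 9.51 to 10.8 in *Ctl* mice, and the macrophage level does not.

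For each member that fell, the 5 tested genes with the most similar pattern were taken by Pearson's r of log2 levels over the 10 mice, a description that the gap between the cohorts enters. With the cohort means subtracted, the r of the 30 genes so named lay between 0.56 and 0.96. In the endothelial list, which holds 23 of the 14870 tested genes, were 4 of the 30. Genes outside that list can be endothelial too, *Pecam1* among them. Of the 30, 28 were called lower, beside 4.69% of all tested genes, a count that the gap between the cohorts also enters. For *Sele* they were *Vwf* (r = 0.98, and 0.92 within cohorts), *Plvap*, *Eng*, *Rasip1* and *Adgrl4*. For *Selp* they were *Exoc3l2* (0.99, and 0.89 within cohorts), *Plpp1*, *Egfl7*, *F2r* and *Gja4*. *Icam2* was followed by *Pla2r1* (0.98, and 0.93 within cohorts), *Ramp2*, *Kank3*, *Plxna2* and *Myo7a*. *Mcam* was followed by *Ackr2* (0.96, and 0.89 within cohorts), *Ednrb*, *Fabp4*, *Nexn* and *Tbxa2r*. The likeness was looser for *Vcam1*, with *Sncaip* (0.97, and 0.83 within cohorts), *Gucy1a3*, *C5ar2*, *Gimap4* and *Pecam1*, and for *Madcam1*, with *Tmem136* (0.95, and 0.82 within cohorts), *Fez1*, *Gm28043*, *1700029F12Rik* and *Ext1*.

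The partners of these molecules were read from lists drawn up by role. The counts of calls in these lists stand beside 4.69% of all tested genes called lower and 2.43% called higher. Of 8 tested selectin ligands and carriers 4 were called lower and 0 higher, with a median log2 fold change of -0.88 (-0.005 over all tested genes). *Emcn*, an endothelial sialomucin, fell by 1.52 on the log2 scale, and was the one of the 4 called in every fit without 1 mouse. *Cd44*, a hyaluronan receptor that can carry selectin ligands, averaged 7009 normalized counts in *Smad4del* mice and 10068 in *Ctl* mice (log2 fold change -0.54). *Cd34*, a sialomucin of endothelium, fell by 1.22, and *Spn*, which encodes the leukocyte sialoprotein CD43, by 1.93 at a low level of 7.66 in *Smad4del* mice against 31.0 normalized counts in *Ctl* mice. *Cd24a*, which encodes a P-selectin ligand found on bile duct epithelium, averaged 14011 in *Smad4del* mice and 10856 in *Ctl* mice (log2 fold change 0.38, limma adjusted p = 0.0748). The lower calls of this list numbered 1 without A5217, A5218 or A5221, 2 without A5215 or A5628, 1 to 4 over all 10 fits, and 5 with 1 higher by DESeq2.

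Of 12 genes that build the carbohydrates of selectin ligands, 1 was called lower and 1 higher (median -0.38). With 1 call of 12 either way, the list cannot be told from all tested genes, of which 4.69% were called lower and 2.43% higher. *Tpst2*, a tyrosine sulfotransferase needed for P-selectin binding of PSGL-1, fell by 0.63, a call lost without A5218. *St3gal6*, a sialyltransferase, averaged 1598 normalized counts in *Smad4del* mice and 1132 in *Ctl* mice (log2 fold change 0.51, limma adjusted p = 0.0479), and held in 2 of the 10 fits without 1 mouse. *Fut7*, the fucosyltransferase that completes selectin ligands in leukocytes, stood at 16.4 in *Smad4del* mice and 21.96 in *Ctl* mice.

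Of 12 leukocyte integrin genes and their partners 1 was called lower and 0 higher by limma, with a median of -1.65. At an unadjusted p under 0.05 the lower genes numbered 8, and by DESeq2 4. By limma, 1 call of 12 cannot be told from the 4.69% of all tested genes called lower. The one called by limma was *Itga4*, the alpha chain of the receptors of VCAM-1 and MAdCAM-1. It averaged 22.3 normalized counts in *Smad4del* mice and 232 in *Ctl* mice (log2 fold change -3.02). *Itgb2*, the shared chain of the receptors of ICAM-1 and ICAM-2, averaged 581 in *Smad4del* mice and 2105 in *Ctl* mice (log2 fold change -2.17, limma adjusted p = 0.169). *Itgb7* averaged 69.6 in *Smad4del* mice and 187 in *Ctl* mice (adjusted p = 0.128 by limma). *Itgb1*, which most cells express, averaged 12713 in *Smad4del* mice and 15720.3 in *Ctl* mice (log2 fold change -0.31, limma adjusted p = 0.0849). The lower calls of the list numbered 2 without A5216 or A5219 and 3 without A5447. Among leukocyte markers other than those of macrophages, 0 of 6 tested neutrophil genes were called by limma (2 lower at an unadjusted p under 0.05, 1 by DESeq2, 2 without A5216 and 1 without A5219), and of 3 tested lymphocyte genes *Cd4* was called lower, with 3.29 normalized counts in *Smad4del* mice and 67.4 in *Ctl* mice. The *Cd4* call was lost by edgeR and without A5218, A5624, A5215, A5221 or A5626. *Cd79b* averaged 14.2 in *Smad4del* mice and 42.5 in *Ctl* mice, *Csf3r* 204 in *Smad4del* mice and 506 in *Ctl* mice, and *S100a9* 116 in *Smad4del* mice and 221 in *Ctl* mice. The mean log2 level of the neutrophil list was 2.27 to 4.89 in *Smad4del* mice and 2.92 to 5.94 in *Ctl* mice. The part of these cells in the integrin values was not tested.

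Of 15 tested genes of junctions and transmigration 6 were called lower and 0 higher (median -0.89), and 5 of the 6 were called in each fit without 1 mouse. *Jam2*, an endothelial junction protein, fell by 1.97 and averaged 2366 normalized counts in *Smad4del* mice and 9153 in *Ctl* mice. *Ackr1*, which carries chemokines across venules, fell by 1.84. *Pecam1*, the platelet endothelial adhesion molecule, fell by 1.74. *Cdh5*, the cadherin of endothelial junctions and also a member of the endothelial list, fell by 1.47. *Esam* and *Stab1* made up the 6, and *Stab1* was lost without A5217, A5218, A5215 or A5626. Junction genes that epithelium shares did not pass: *F11r* averaged 11777 in *Smad4del* mice and 11393 in *Ctl* mice, and *Nectin2* 11734 in *Smad4del* mice and 10263 in *Ctl* mice.

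Of 13 inducers and regulators of adhesion molecules 4 were called lower and 0 higher (median -0.39). The list mixes regulators of either direction, so its lower calls do not say that induction was lower. *Klf2* and *Klf4*, transcription factors of the endothelium under flow among other cells, fell by 1.10 and 1.26. *Il1a*, a cytokine that induces E-selectin, fell by 1.97, and *Irf1*, an interferon-responsive factor that acts on *Vcam1*, by 0.52. The other inducing cytokines gave no call: *Tnf* averaged 2496 normalized counts in *Smad4del* mice and 2098 in *Ctl* mice (limma adjusted p = 0.449), and *Il1b* 858 in *Smad4del* mice and 2019 in *Ctl* mice (limma adjusted p = 0.290). The NF-kB subunits *Rela*, at 6578 in *Smad4del* mice and 6807 in *Ctl* mice, and *Nfkb1*, at 1032.5 in *Smad4del* mice and 1169 in *Ctl* mice, gave none either. *Klf2* was called in all 10 fits without 1 mouse, *Klf4* in 5, and *Il1a* and *Irf1* in 4 each, so that the list gave 1 call without A5217, A5218, A5624 or A5221 and 2 without A5626.

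**Figure D5:**
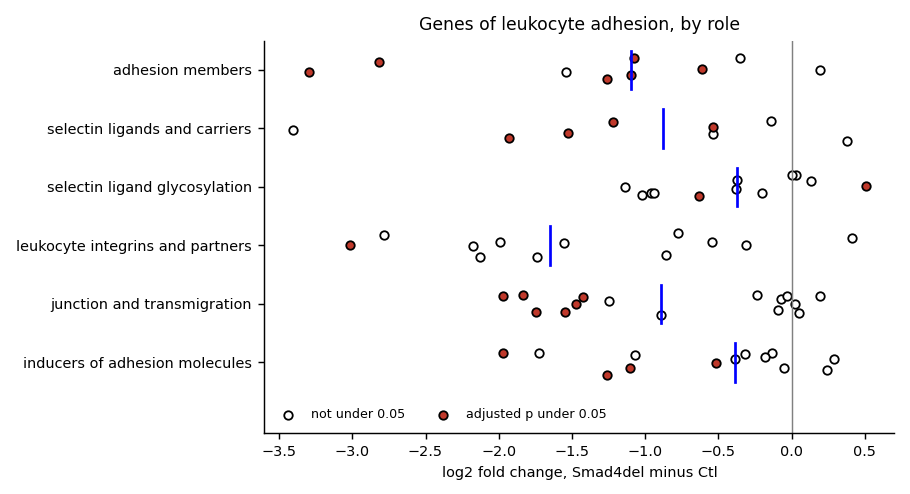
Log2 fold change, *Smad4del* minus *Ctl* (horizontal axis), of each tested gene of the 9 adhesion members and of 5 further lists. These hold their ligands, enzymes, receptors and junction partners, and their inducers together with other regulators. A blue line gives the median of each list, and filled points have a limma adjusted p under 0.05. The medians run from -1.65 for the leukocyte integrins to -0.38 for the glycosylation enzymes, and *St3gal6* is the single filled point right of 0.

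Some reads of these genes cannot be assigned with certainty, since the amplification kit marks no strand. Exons of RNAs on the opposite strand cover 186 (*Gm16587*) and 438 (*Gm16548*) of the 4413 exon bases of *Selp*, 511 of 4360 in *Icam1* (*Gm47079*), 61 of 8870 in *Vcam1* and 17 of 3350 in *Mcam*.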

How the data were processed

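RNA of sorted reactive cholangiocytes from 5 *Smad4del* and 5 *Ctl* mice, 1 library per mouse, was amplified (SMART-Seq v4) and sequenced as single-end reads. The authors' pipeline ran from Trimmomatic 0.36 through STAR, with GRCm38.p5 as the genome, to featureCounts on GENCODE genes and normalization in DESeq2 1.14.1 (R 3.3.2). A further build, mm9, appears in the submitters' processing notes and was not used here. The deposited signal values are read counts over the size factor of the mouse, uncorrected for length. The sources do not state whether multi-mapping reads were included. Within each mouse 100% of values were whole multiples of 1 step (relative tolerance 1e-06), which gave back reads. In mouse A5217 the step of 0.998 is too near 1 to tell reads from rounding, so count tests were run with and without it.

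Genes whose normalized counts averaged 10 or more were compared on log2(normalized count + 1) by limma 3.58.1 (R 4.3.3) with a trended prior and no term besides the cohort, and p-values were adjusted over all of them by Benjamini-Hochberg, with a threshold of 0.05. The log2(normalized count + 1) scale understates changes of low genes. For single genes an exact permutation test over the mice, two-sided with 252 arrangements, was added. The alternatives changed the pseudocount (0.5 and 10), the filter (none, or a mean of 50), the scaling (quantiles, or equal medians), the weights of mice, the terms (series of mouse numbers added) or the tool, with edgeR 4.0.16 and DESeq2 1.42.0 on the recovered reads, or left out each mouse in turn. EdgeR called 598 genes lower and 313 higher, and DESeq2 1290 lower and 893 higher. No 2 libraries agreed within sampling noise (smallest chi-square per gene 25.8). No columns of the authors' own comparisons were used.

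The 9 genes, the pathway lists and the marker lists were chosen with earlier results of these data known. Named were all 9 genes, up to 4 genes of each pathway list with the smallest p in the direction with more calls, the 2 markers of a cell type with the highest mean, and the 5 genes most like each member called. List genes named beyond these (among them *Cd24a*, *St3gal6*, *Fut7*, *Itgb1*, *Itgb2*, *Itgb7*, *F11r*, *Nectin2*, *Esam*, *Stab1*, *Tnf*, *Il1b*, *Rela* and *Nfkb1*), and the markers named because they were called, were chosen after their values were seen. 1 list gene is not reported here by name. Gene positions come from GENCODE M21, a later annotation of the same build.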

Additional observations from a re-analysis of the deposited data

Results flagged for a closer look

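The gap between 1 mouse and the nearest of its cohort, divided by the range of the cohort, passed Dixon's 95% critical value of 0.71 for 5 values in 2 of the 18 groups formed by 9 genes and 2 cohorts. Chance passes about 1 in 20 groups. *Icam1* in *Smad4del* mice had a gap of 0.843, with 16268 normalized counts in A5447 against 10775 in the nearest mouse. *Selplg* in *Smad4del* mice had a gap of 0.714, with 614 normalized counts in A5216 against 189.7 in the nearest mouse. Within its cohort A5447 also had the highest *Mcam* and the highest mean log2 level of the mesothelial markers (9.99) and of the cholangiocyte markers (12.9). Its level of the macrophage markers was the lowest of the cohort (6.65), and that of A5216 the highest (11.1). The part of these cells in either value was not tested.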

How the results depend on the processing

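The 6 lower calls among the 9 adhesion genes (*Sele*, *Selp*, *Vcam1*, *Icam2*, *Madcam1* and *Mcam*) held in all 12 alternatives and in all 10 limma fits without 1 mouse. Among the 12 were an edgeR and a DESeq2 fit without A5217. In none of these fits was any of the 9 called higher. The largest adjusted p of the 6 calls was 0.0473, for *Madcam1* by edgeR without A5217, and no log2 fold change of the 9 changed sign. The members called lower numbered 6 to 7 without 1 mouse, 7 without A5447 when *Icam1* was added with a log2 fold change of -0.48. Over all genes the counts moved more. DESeq2 called 1290 lower and 893 higher, and without A5217 edgeR called 265 lower and 89 higher. Genes called higher numbered 209 with no filter, 579 with quantile normalization and 626 with equal medians, which moved the median log2 fold change of all genes to 0.060, against -0.005 as deposited. Without 1 mouse limma called 329 to 852 genes lower and 105 to 563 higher, and the lower calls fell to 329, 364, 462 and 381 without A5217, A5218, A5215 and A5221. The higher calls were 105 without A5217, 145 without A5218, 563 without A5447, 197 without A5624, 206 without A5215 and 160 without A5221. The causes were not tested. No paired analysis was run, because the labels do not say which mice were littermates.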
